A study of Homo sapiens with 54 samples.

Results

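The SOCS family of cytokine signaling brakes comprises CISH and SOCS1 to SOCS7. Its members were the rows of the UMI count table whose Ensembl identifiers map to these names, and all 8 were found among 31835 gene identifiers. OCI-Ly1 is an established B cell lymphoma line with a t(14;18) translocation. Per the study's methods, the line also carries a variant in the DNA-binding domain of its own STAT6. All cells stably expressed an added Flag-tagged STAT6 from a CMV-driven vector, which was STAT6WT in 27 libraries and D419G, D419N, or N421K in 9 libraries each. These 3 mutant lines together are called STAT6MUT. Every culture received IL-4 at 10 ng/ml for 20 min, was washed, and was harvested after 2, 4, or 8 h, so that each time point held 9 STAT6WT and 3 libraries of each mutant line. Libraries without IL-4 and libraries with an empty vector were not analysed here. The lines were transduced pools or clones that the labels do not tell apart, so line and mutation cannot be told apart.

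The members are feedback regulators of JAK/STAT signaling. Cytokine receptors activate JAK kinases, the kinases phosphorylate STAT transcription factors, and STAT dimers switch on genes that include some of the SOCS genes. The SOCS proteins bind phosphorylated receptors or kinases through an SH2 domain and recruit a ubiquitin ligase through the SOCS box. CISH is a known target of STAT5 and limits signaling by IL-2 family and related receptors. SOCS1 inhibits JAK1, JAK2, and TYK2 and limits IL-4 and interferon signaling, and its gene is often mutated in B cell lymphomas.

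Libraries held 161518 to 2978715 UMIs (median 885258), and 8 of 54 had under 0.5 of the median. Of these shallow libraries, 6 were STAT6MUT and 2 were STAT6WT. The summed level of 7 B cell markers was 2842 to 3659 CPM (counts scaled to a library of 1000000 UMIs), and the myeloid and NK cell markers found in the table summed to at most 2.16 CPM. STAT6 mRNA itself had a log2 fold change of -0.15 ± 0.04 (SE) in STAT6MUT against STAT6WT across time points (edgeR quasi-likelihood test, adjusted p = 0.00982). By time point, STAT6 mRNA was called in edgeR at 4 h only (-0.30 ± 0.08, adjusted p = 0.0136). At 2 h and 8 h the adjusted p was 0.441 and 0.762. This count does not separate the added STAT6 from that of the cells. Time points were in separate plate rows, so that time and plate row cannot be told apart.

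The upstream sequences of the members with the clearest differences are shown first, because CISH and SOCS1 differ there in their STAT-type motifs. Both are the 250 bases before the RefSeq transcription start on GRCh38.p14, minus strand, chr3:50611775-50612024 for CISH and chr16:11256205-11256454 for SOCS1. Capitals mark, in CISH, matches of the palindromic STAT motif, TTC and GAA with 3 bases of any kind between them. In SOCS1 they mark an interferon response type motif, a pair of GAAA with 2 bases between them.
CISH: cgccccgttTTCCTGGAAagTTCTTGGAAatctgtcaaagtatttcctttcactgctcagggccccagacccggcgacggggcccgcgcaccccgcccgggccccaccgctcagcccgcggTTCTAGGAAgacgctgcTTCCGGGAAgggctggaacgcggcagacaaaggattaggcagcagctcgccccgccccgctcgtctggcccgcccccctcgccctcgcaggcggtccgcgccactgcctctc
SOCS1: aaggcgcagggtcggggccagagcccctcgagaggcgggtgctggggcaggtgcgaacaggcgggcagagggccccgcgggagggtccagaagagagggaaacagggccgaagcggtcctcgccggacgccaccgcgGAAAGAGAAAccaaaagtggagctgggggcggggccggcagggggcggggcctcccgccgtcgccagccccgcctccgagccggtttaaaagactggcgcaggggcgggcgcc
The CISH sequence held 4 matches of the STAT motif. They lay at bases -241 to -233, -230 to -222, -129 to -121, and -112 to -104 from the start. Of 35116 promoter windows of this length, 6.57% held at least 1 such match and 5 windows held at least 4. The SOCS1 sequence held no match of the STAT motif and 1 of the interferon response type motif, at -113 to -104, which 3.02% of windows held on either strand. The wider spacing that STAT6 is known to prefer, with 4 bases between TTC and GAA, was in neither window and in 5.38% of all windows. The windows of SOCS3 (from 2 starts), SOCS4, and SOCS6 held none of the 3 motifs. Those of SOCS3 were chr17:78359668-78359917 and chr17:78360926-78361175, minus strand. Neither covers the bases just before the gene start at 78360077 in the gene positions used here, and those bases were not searched. SOCS2, SOCS5, and SOCS7 had no entry in the RefSeq promoter table. These matches describe letters and do not show binding. Only these 250 bases were searched, so a missing match does not show that a gene lacks such sites elsewhere.

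Each UMI marks 1 mRNA molecule caught at its 3′ end, so CPM needs no scaling by gene length. Whether capture or overlapping genes affect the members unequally was not tested, so their ranking is a description. SOCS1 was the most abundant member, with a mean of 78.4 ± 25.6 CPM (SD, n = 54) and 4364 UMIs in all libraries. SOCS4, a less studied member linked to EGF receptor turnover, followed with 25.2 ± 7.17 CPM and 1404 UMIs. CISH had 9.43 ± 10.1 CPM and 498 UMIs. SOCS7, which is linked to insulin signaling, had 6.04 ± 3.07 CPM, and SOCS5, a regulator of EGF receptor and IL-4 receptor signaling, had 2.54 ± 2.55 CPM. The ranges of CISH, SOCS7, and SOCS5 overlapped between libraries, with totals of 498, 360, and 128 UMIs. Their order was not tested. SOCS6, which binds KIT and insulin pathway proteins, had 23 UMIs in 19 libraries. SOCS3, the main brake on IL-6 and STAT3 signaling, had 15 UMIs in 11 libraries. SOCS2, the brake on growth hormone signaling, had 1 UMI in 1 library. A count of 0 in all 27 STAT6MUT libraries allows SOCS2 a level of up to 0.123 CPM (3 UMIs over the group, counting error only).

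**Figure D1:**
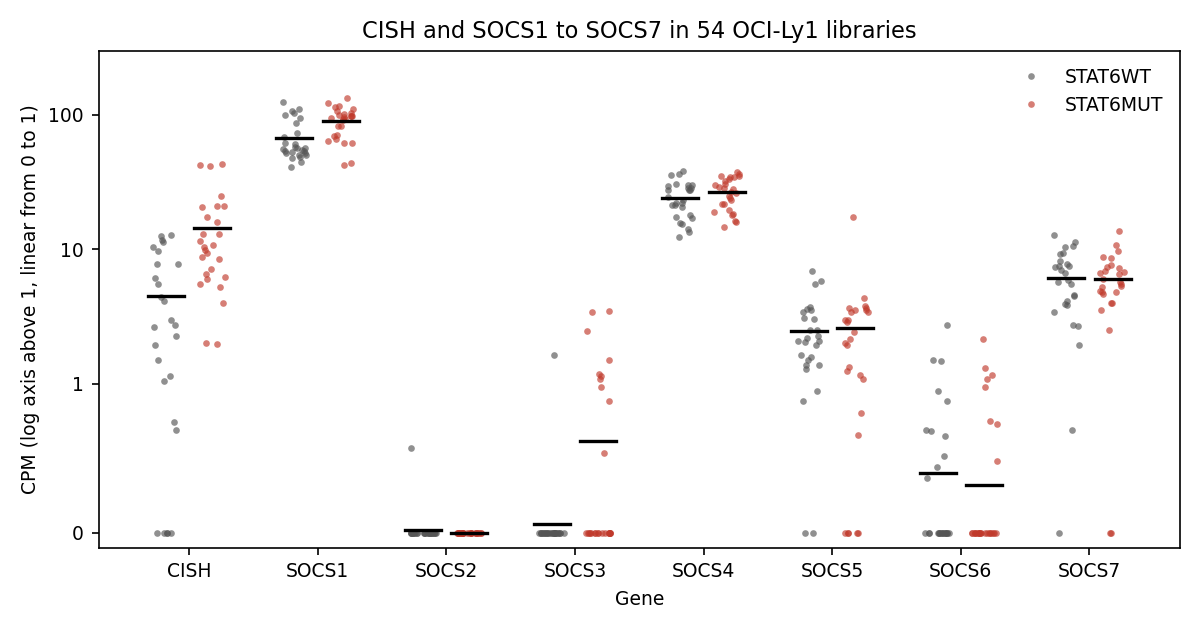
Level of each SOCS family gene in every library, in CPM on an axis that is logarithmic above 1 and linear below. Points are libraries, 27 STAT6WT in gray and 27 STAT6MUT in red, and bars are group means. SOCS1 and SOCS4 were detected in all 54 libraries, and most libraries had no UMI of SOCS2, SOCS3, or SOCS6.

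Only CISH, SOCS1, and SOCS4 had enough counts for the test across time points, since the filter asks for about 10 UMIs in enough libraries. CISH and SOCS1 rose in STAT6MUT, that is 2 of the 3 members tested, where 13.4% of 9261 genes were called in either direction. CISH met the filter mainly through STAT6MUT libraries, with a median of 7 UMIs there and 3 in STAT6WT. The count of 2 in 3 is therefore no test against that share. Calls are those of edgeR's quasi-likelihood method, with p adjusted over all genes tested. In separate fits, the members called were 1 at 2 h (CISH), where 8.59% of genes were called, 1 at 4 h (SOCS1), where 3.97% were called, and none (0) at 8 h, where 1.44% were called. At 8 h, 1 member had an unadjusted p under the threshold (SOCS1), and DESeq2 and limma-voom called 0. CISH was below the count filter at 4 h and 8 h. In the fits without this filter, 2 members were called at 4 h (CISH and SOCS1), where 1.35% of 26708 genes were called, and 0 at 8 h, where 0.901% were called.

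The CISH mean was higher in STAT6MUT at each time point, with the widest separation at 4 h. At 2 h, STAT6WT libraries held 4.11 to 12.7 CPM (median 10.4) and STAT6MUT libraries 10.3 to 43.1 CPM (median 21.0). The groups overlapped, with 7 of 9 STAT6MUT libraries above every STAT6WT library. At 4 h, STAT6WT libraries held 0 to 2.64 CPM (median 1.05), and 4 of the 9 had no CISH UMI. The STAT6MUT libraries held 5.21 to 25.0 CPM (median 8.47) at this time, and all 9 lay above every STAT6WT library. At 8 h, the ranges were 0 to 7.75 CPM (median 2.72) in STAT6WT and 1.97 to 13.0 CPM (median 7.09) in STAT6MUT. There, 4 of 9 STAT6MUT libraries lay above every STAT6WT library. In these bulk libraries, more cells that express a gene and more mRNA per cell cannot be told apart.

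The fitted log2 fold change of CISH between STAT6MUT and STAT6WT was 1.45 ± 0.19 (SE, adjusted p = 9.19e-09 in edgeR) across time points, a 2.72-fold difference. The 2 h fit by itself gave 1.17 ± 0.21 (adjusted p = 5.33e-05). Fits without the count filter gave 2.97 ± 0.43 for the 4 h libraries, with an adjusted p of 2.11e-09, and 1.16 ± 0.42 for the 8 h libraries, with an adjusted p of 0.222. With the replicate block, the 4 h value was 4.31 (adjusted p = 1.93e-05). Replicate numbers 4 to 9 occur only in STAT6WT, so the block compares the genotypes within numbers 1 to 3. There, STAT6WT held 0, 1, and 0 CISH UMIs at 4 h. The value of 2.97 rests on 10 UMIs in STAT6WT and 73 in STAT6MUT. Exact permutation tests, two-sided and unadjusted, gave p = 0.000946 at 2 h, p = 4.11e-05 at 4 h, which is the smallest that 9 against 9 libraries allow, and p = 0.0213 at 8 h. Adjusted over all 22 tests of a member at a time point, the 8 h permutation p was 0.0948. The 8 h difference passed in edgeR when N421K was left out (log2 fold change 1.62, adjusted p = 0.0399). This was 1 of 29 alternative fits without the count filter, and none of the others passed. The change of the CISH difference with time was not called (interaction adjusted p = 0.187 in edgeR), while limma-voom called it (adjusted p = 0.0227).

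CISH fell between 2 h and 4 h in both genotypes. In STAT6WT, the mean went from 9.59 ± 3.00 CPM to 0.954 ± 1.03 CPM (SD, n = 9 each), and the log2 fold change was -3.12 ± 0.44 (edgeR adjusted p = 6.80e-08). In STAT6MUT, it went from 25.4 ± 13.5 to 10.5 ± 6.52 CPM, and the log2 fold change was -1.31 ± 0.25 (edgeR adjusted p = 7.28e-05). From 4 h to 8 h, neither genotype passed the test, with log2 fold changes of 0.92 ± 0.62 in STAT6WT and -0.89 ± 0.36 in STAT6MUT (adjusted p = 0.449 and 0.101 in edgeR). The STAT6MUT mean at 4 h was near the STAT6WT mean at 2 h, 10.5 against 9.59 CPM.

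**Figure D2:**
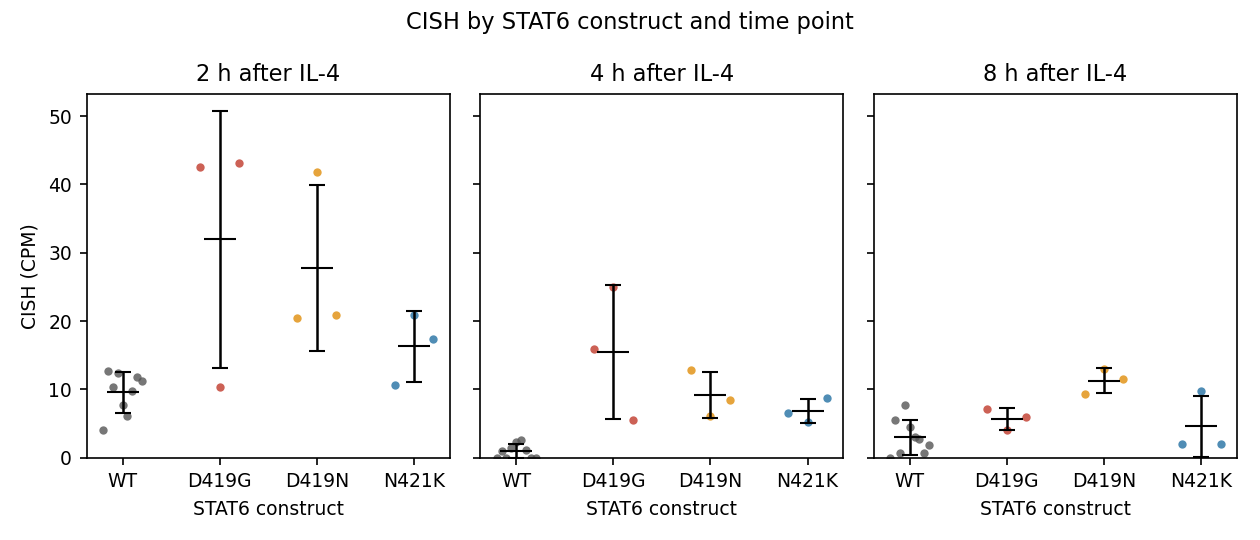
CISH level in CPM by STAT6 construct at 2, 4, and 8 h after the IL-4 pulse. Points are libraries (9 STAT6WT and 3 of each mutant line per time point), with means and SD. At 4 h all 9 mutant libraries, from 5.21 CPM up, lay above the highest STAT6WT library at 2.64 CPM.

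All 3 mutant lines had more CISH than STAT6WT across time points. The log2 fold change was 1.98 ± 0.23 for D419G, 1.49 ± 0.25 for D419N, and 0.84 ± 0.24 for N421K (adjusted p = 1.79e-10, 1.06e-05, and 0.0108 in edgeR). Leaving out replicate 3 ended the N421K call (0.75, adjusted p = 0.136). In these fits, a replicate left out means the libraries of that number in every line and at every time point. Across time points, D419G had 2 members called (CISH and SOCS1) with 5.38% of genes called, D419N had 1 (CISH) with 2.75% called, and N421K had 2 (CISH and SOCS1) with 13.7% called. The joint test of a difference among the lines called 1 member (CISH, adjusted p = 0.00982 in edgeR), with 2.39% of genes called. In that fit, CISH in D419N was 0.49 below D419G on the log2 scale, and in N421K 1.14 below. DESeq2 and limma-voom did not call this difference (adjusted p = 0.198 and 0.0978), and neither did edgeR without replicate 1 (adjusted p = 0.494) or without replicate 3 (adjusted p = 0.106).

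By library, the D419G cultures held 42.6, 10.3, and 43.1 CPM of CISH at 2 h, then 15.9, 25.0, and 5.51 CPM at 4 h, and 7.09, 4.01, and 6.00 CPM at 8 h. The D419N cultures held 20.5, 41.8, and 21.0 CPM at 2 h, then 12.9, 6.17, and 8.47 CPM at 4 h, and 9.34, 13.0, and 11.5 CPM at 8 h. The N421K cultures held 10.7, 21.0, and 17.3 CPM at 2 h, then 6.58, 5.21, and 8.77 CPM at 4 h, and 1.97, 9.80, and 1.99 CPM at 8 h. At 4 h each line lay wholly above STAT6WT, and at 8 h D419N did while the other 2 lines overlapped with it. The exact permutation p of 3 against 9 libraries was 0.00909 (unadjusted) for each line at 4 h, for D419N at 2 h, and for D419N at 8 h, which is the smallest this design allows. At 4 h and 8 h, CISH was below the minimum median of UMIs set for this test. These values come from a run of all 64 tests that was added after seeing the data. In that run the adjusted p of each was 0.0646. Several of these values come from the shallow libraries and rest on few UMIs, such as 3 UMIs for the lowest D419G library at 2 h, 1 for the lowest at 4 h, and 2 for the highest N421K library at 8 h. Without the 8 shallow libraries, the CISH log2 fold change across time points was 1.40 (adjusted p = 5.18e-08 in edgeR).

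SOCS1 overlapped between the genotypes at 2 h and was separated between them at 4 h. The 2 h ranges were 68.1 to 124 CPM (median 99.9) in STAT6WT and 93.4 to 134 CPM (median 102) in STAT6MUT, and 1 STAT6MUT library was above every STAT6WT library. At 4 h, STAT6WT libraries held 50.2 to 61.8 CPM (median 55.4) and STAT6MUT libraries 70.2 to 123 CPM (median 94.2), with all 9 above every STAT6WT library. At 8 h, the ranges were 41.2 to 56.8 CPM (median 52.3) and 42.5 to 98.0 CPM (median 63.7), and 7 of 9 STAT6MUT libraries were above every STAT6WT library. CISH and SOCS1 were the members whose genotypes did not overlap at 4 h, 2 of 8. Of the 26708 genes with a UMI at this time point, 0.154% were separated in this way.

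Across time points, the SOCS1 log2 fold change was 0.35 ± 0.07 (SE, adjusted p = 4.25e-05 in edgeR), which averages unlike values. The difference changed with time (interaction adjusted p = 5.60e-04 in edgeR), and SOCS1 was the 1 member called in this test, where 0.957% of genes were called. The exact permutation p, two-sided and unadjusted, came to 0.168 for the 2 h libraries, 4.11e-05 for those at 4 h, and 0.0216 for those at 8 h. Adjusted over all 22 tests of a member at a time point, the 8 h permutation p was 0.0948. The 8 h fit in edgeR gave 0.33 ± 0.11 and was not called (adjusted p = 0.133). With the D419G library of replicate 1 left out, the 8 h difference passed in edgeR (0.39, adjusted p = 0.0434). This was 1 of 31 alternative fits, and none of the others passed. The SOCS1 call across time points was kept without the shallow libraries (0.33, adjusted p = 3.17e-04).

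The course of SOCS1 over time differed between the genotypes. In STAT6WT it fell from 96.3 ± 17.9 CPM at 2 h to 55.4 ± 4.11 CPM at 4 h (SD, n = 9 each), with a log2 fold change of -0.88 ± 0.10 (edgeR adjusted p = 9.74e-12). In STAT6MUT, the same interval gave 106 ± 12.5 and 96.6 ± 16.0 CPM and a log2 fold change of -0.13 ± 0.09 (edgeR adjusted p = 0.424). In STAT6MUT it fell later, between 4 h and 8 h, to 65.7 ± 17.3 CPM (-0.62 ± 0.11, adjusted p = 1.86e-05). In STAT6WT this later interval gave -0.16 ± 0.11 (adjusted p = 0.472). Of the 3 members tested, CISH and SOCS1 were called in STAT6WT from 2 h to 4 h, where 10.9% of genes were called. CISH was called in STAT6MUT from 2 h to 4 h, where 8.9% were called, and SOCS1 from 4 h to 8 h, where 11.7% were called. No member (0 of 3) was called in STAT6WT from 4 h to 8 h by edgeR, DESeq2, or limma-voom, where 4.49% of genes were called by edgeR, and 0 had an unadjusted p under 0.05.

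**Figure D3:**
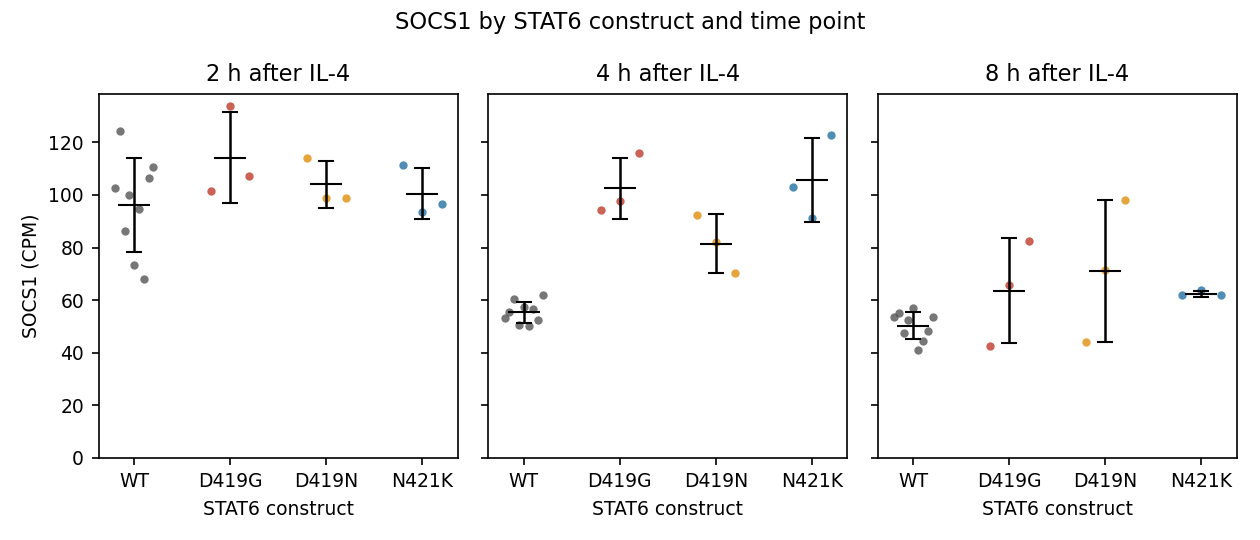
SOCS1 level in CPM by STAT6 construct at 2, 4, and 8 h after the IL-4 pulse. Points are libraries (9 STAT6WT and 3 of each mutant line per time point), with means and SD. STAT6WT fell from a mean of 96.3 CPM at 2 h to 55.4 CPM at 4 h, where all 9 mutant libraries were higher.

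No difference in SOCS1 among the mutant lines was detected. The log2 fold change against STAT6WT was 0.36 ± 0.10 for D419G, 0.27 ± 0.10 for D419N, and 0.38 ± 0.09 for N421K (adjusted p = 0.0130, 0.127, and 8.62e-04 in edgeR). The joint test gave an adjusted p of 0.865, which does not show that the lines are equal. The D419G call was lost without the shallow libraries (0.30, adjusted p = 0.106), without replicate 2 (0.35, adjusted p = 0.0765), and without replicate 3 (0.31, adjusted p = 0.106). At 4 h the mean was 103 ± 11.6 CPM in D419G, 81.5 ± 11.1 CPM in D419N, and 106 ± 15.9 CPM in N421K (SD, n = 3 each). Each line lay wholly above the STAT6WT libraries there, with an exact permutation p of 0.00909 (unadjusted), the smallest possible. At 8 h the N421K libraries were close together, at 61.8, 63.7, and 61.8 CPM, all above STAT6WT. The D419G libraries spread from 42.5 to 82.4 CPM and the D419N libraries from 44.0 to 98.0 CPM at that time.

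SOCS1 and CISH share their positions with other genes, and the sources used here do not give the strand setting of the counting. SOCS1 (GRCh38, chromosome 16, 11254417 to 11256204, minus strand) lies wholly within RMI2, a gene of the opposite strand that encodes a DNA repair factor. CISH (chromosome 3, 50606489 to 50611774, minus strand) shares 255 bases at its 5′ end with MAPKAPK3, a kinase gene of the opposite strand. RMI2 had log2 fold changes of -0.03 ± 0.11, 0.02 ± 0.14, and -0.01 ± 0.15 at 2, 4, and 8 h, and was not called (adjusted p = 0.926, 0.973, and 0.999 in edgeR). MAPKAPK3 was not called either, with -0.26 ± 0.13, -0.02 ± 0.16, and -0.03 ± 0.13 (adjusted p = 0.233, 0.985, and 0.962). SOCS5 lies on the same strand within LINC01118, which had at most 0.204 CPM on average in any group. SOCS2 overlaps with SOCS2-AS1 on the opposite strand.

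SOCS4 did not pass the test between the genotypes. Its levels were 21.3 to 35.7 CPM (median 28.7) in STAT6WT and 19.1 to 37.5 CPM (median 30.4) in STAT6MUT at 2 h. They were 12.3 to 29.9 CPM (median 20.4) and 16.1 to 35.1 CPM (median 24.7) at 4 h, and 14.2 to 38.5 CPM (median 23.2) and 14.7 to 32.2 CPM (median 21.6) at 8 h. The genotypes overlapped at each time point. The log2 fold change across time points was 0.17 ± 0.09 (adjusted p = 0.238 in edgeR). By line, it was 0.12 ± 0.14 for D419G, -0.00 ± 0.14 for D419N, and 0.32 ± 0.12 for N421K (adjusted p = 0.743, 0.999, and 0.0517). The N421K value passed when the shallow libraries (0.35, adjusted p = 0.0342) or replicate 2 (0.50, adjusted p = 0.00326) were left out. It also passed without replicate 5 (0.38, adjusted p = 0.0179) and without replicate 8 (0.36, adjusted p = 0.0314), numbers that only STAT6WT libraries have. The value was 0.15 without replicate 1 (adjusted p = 0.662), and with the replicate block it was 0.28 (adjusted p = 0.242). From 2 h to 4 h in STAT6WT, it was -0.41 ± 0.16 (adjusted p = 0.0904), which passed without replicate 5 (-0.55, adjusted p = 0.0236).

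**Figure D4:**
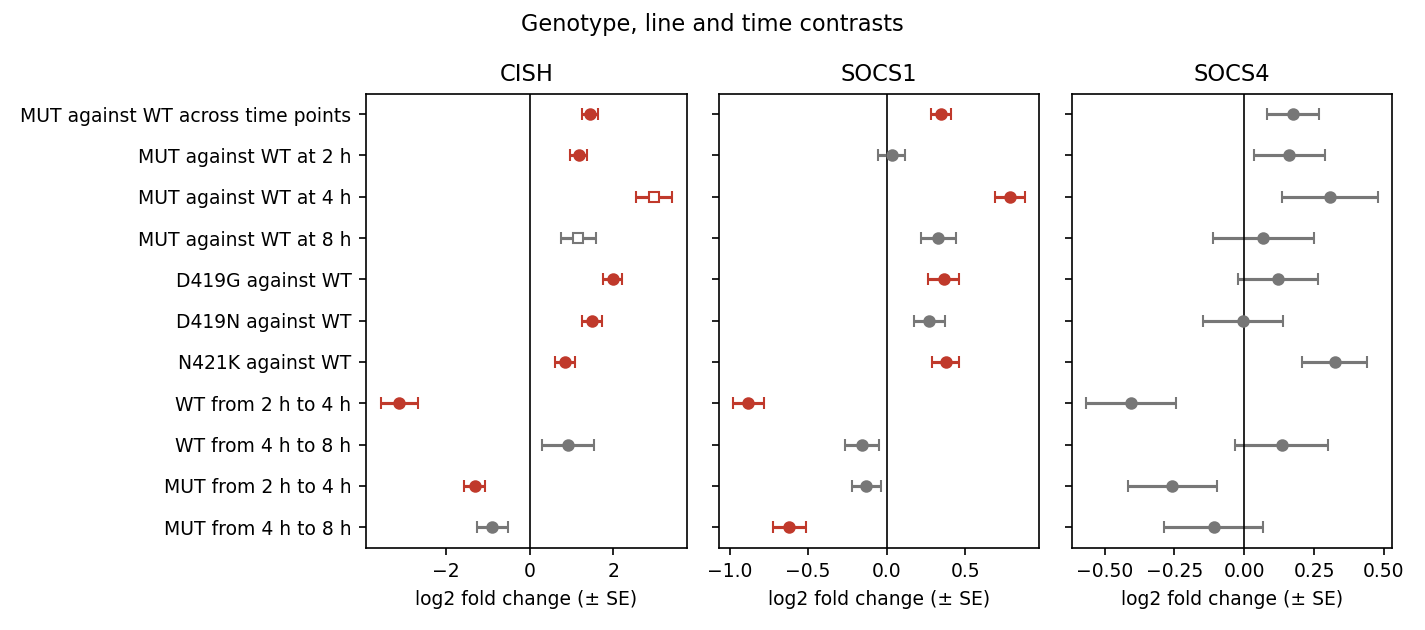
Fitted log2 fold changes (points) with SE (bars) of CISH, SOCS1, and SOCS4 for each genotype, line, and time comparison, with a separate horizontal scale per gene. Red marks an adjusted p under 0.05 in edgeR, gray the others, and open squares the fits without the count filter. CISH rises in each line, from 0.84 in N421K to 1.98 in D419G, and SOCS1 rises most at 4 h.

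SOCS3 was near the limit of detection, and nearly all of its UMIs came from STAT6MUT libraries. There were 14 UMIs in 10 of 27 STAT6MUT libraries and 1 UMI in 1 of 27 STAT6WT libraries. The ratio of CPM, with the libraries of each genotype pooled, was 17.7 (95% exact interval 2.69 to 749, counting error only). By line, D419G held 7 UMIs, D419N 6, and N421K 1. By time, the STAT6MUT libraries held 9 UMIs at 2 h, 4 at 4 h, and 1 at 8 h. In edgeR without the count filter, the adjusted p of SOCS3 was 0.00365 across time points, where 3.67% of 31835 genes were called. It was 0.00253 for D419G (1.41% called), 0.0384 for D419N (0.773% called), and 0.733 for N421K (3.94% called), and the joint test of the lines gave 0.328. Exact permutation tests by time point, two-sided and unadjusted, gave p = 0.0701 at 2 h, p = 0.0824 at 4 h, and p = 1 at 8 h. This ratio rests on 1 STAT6WT UMI, and no fitted fold change is given.

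SOCS5, SOCS6, and SOCS7 showed no detectable difference between genotypes at this depth. The ratio of pooled CPM, STAT6MUT to STAT6WT, was 0.894 for SOCS5 (0.617 to 1.29), 0.973 for SOCS6 (0.382 to 2.40), and 0.990 for SOCS7 (0.799 to 1.22), each with its 95% exact interval for counting error. SOCS7 was detected in 25 of 27 STAT6MUT and 26 of 27 STAT6WT libraries, and SOCS5 in 22 and 25. SOCS6 had 4 UMIs in STAT6WT and 0 in STAT6MUT at 8 h, where a count of 0 allows up to 0.407 CPM (exact permutation p = 0.0824, unadjusted). CPM of SOCS7 ranged from 0 to 12.7 in STAT6WT and from 0 to 13.6 in STAT6MUT. In edgeR without the count filter, the adjusted p across time points was 0.824 for SOCS5, 0.956 for SOCS6, and 0.948 for SOCS7.

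Genes that act with the SOCS proteins were read as lists. Beside each count across time points stands the share of all genes called there (13.4%, with 624 higher and 613 lower). For counts at 2, 4, and 8 h the shares were 8.59%, 3.97%, and 1.44%. Of 21 receptors, JAKs, and STATs, 15 were tested across time points, where 4 rose and 2 fell in STAT6MUT in edgeR, with a list median of 0.06 beside 0.00 over all genes (log2). Those that rose included the kinase gene JAK2 (0.86 ± 0.14), STAT2 (0.35 ± 0.11), and the receptor gene IL21R (0.98 ± 0.12). IL4R, which encodes the IL-4 receptor chain that recruits STAT6, and STAT6 were the 2 that fell. IL4R had -0.19 ± 0.06 across time points and -0.70 ± 0.07 at 2 h (adjusted p = 0.0117 and 4.13e-12 in edgeR). It was not called at 4 h (0.04 ± 0.07, adjusted p = 0.858) or 8 h (0.09 ± 0.07, adjusted p = 0.587).

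Of 10 other brakes on JAK/STAT signaling tested (phosphatases, PIAS and CBL proteins), 1 rose, the ubiquitin ligase gene CBLB (0.29 ± 0.07, adjusted p = 0.00283 in edgeR), with a median of 0.06. A count of 1 in 10 is near the share of all genes called. The phosphatase genes PTPN1 and PTPN2 had 0.02 ± 0.06 and 0.07 ± 0.05. Of the 8 ligase partners of the SOCS box, all tested, edgeR called 0 across time points and at each time point, as did DESeq2 and limma-voom. Unadjusted p-values under 0.05 numbered 1 across time points, 0 at 2 h, 0 at 4 h, and 2 at 8 h. The 1 across time points was the scaffold gene CUL5 (0.14 ± 0.05, adjusted p = 0.0615). Of 11 other SOCS box genes tested, 4 rose and 0 fell. These were WSB1 (0.22 ± 0.05), WSB2 (0.42 ± 0.11), ASB7 (0.41 ± 0.13), and RAB40C (0.37 ± 0.10), and the list median was 0.10. By time point, edgeR called 1 of 10 tested at 2 h (WSB1, 0.34 ± 0.08), near the 8.59% of all genes called. At 4 h and 8 h edgeR, DESeq2, and limma-voom called 0, with 1 and 3 unadjusted p-values under 0.05.

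Of 10 STAT target genes tested, 5 rose and 1 fell, with a median of 0.23. At 2 h, 2 rose and 2 fell among 11 tested, with a median of -0.11, where 8.59% of all genes were called. At 4 h and 8 h, 3 rose and 0 fell among 9, where 3.97% and 1.44% of all genes were called. Those that fell at 2 h were MYC (-0.55 ± 0.09) and the kinase gene PIM3 (-0.42 ± 0.09). Across time points, the transcription factor gene IRF4 had the largest rise (0.87 ± 0.14), and the growth regulator MYC fell (-0.17 ± 0.06, adjusted p = 0.0255 in edgeR). BCL6, the germinal center repressor, rose at each time point, with 0.34 ± 0.06, 0.56 ± 0.06, and 0.29 ± 0.07 at 2, 4, and 8 h. The interferon response factor IRF1 was called across time points (0.41 ± 0.11, adjusted p = 0.00310 in edgeR) and in the 4 h fit (0.71 ± 0.18, adjusted p = 0.0105). It was not called at 2 h (0.30 ± 0.18, adjusted p = 0.337) or 8 h (0.20 ± 0.19, adjusted p = 0.748).

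Over the means of the 12 groups of line and time point, the genes whose log2 CPM was most like that of CISH were XBP1 (r = 0.927), GPI (r = 0.926), and RPRD1B (r = 0.918). Genes among the most like SOCS1 were SHMT2 (r = 0.938) and RPS19 (r = 0.937). The comparison covered 8923 genes for CISH and 8922 for SOCS1, the points share libraries and time points, and the values are descriptions.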

How the data were processed

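Prime-seq libraries of 54 OCI-Ly1 cultures were sequenced by the authors on an Illumina HiSeq system and processed with the Drop-seq pipeline. The deposited values are raw UMI counts per Ensembl gene and plate well, without normalization or pooling. The build in the submitters' processing notes is hg38. The sources used here give no aligner, annotation, or strand setting. Symbols were matched for 30959 of 31835 identifiers, no row was without an identifier (0), and every column of values had a sample (0 without). Wells were linked to samples through the sample labels, which name biological replicates.

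Counts were analyzed with R 4.3.3 and edgeR 4.0.16 (quasi-likelihood test, TMM, filterByExpr, Benjamini-Hochberg adjustment over the genes tested, adjusted p under 0.05). Models held time point and genotype, time point and line, or the 6 groups of genotype and time point, and separate fits took the 18 libraries of a single time point. CPM used TMM-scaled totals, and exact permutation tests (scipy 1.17.1) used log2 CPM with a prior count of 2. Alternatives were DESeq2 1.42.0, limma-voom 3.58.1, other scalings and count filters, and leaving out replicates, lines, or the 8 libraries under 0.5 of the median total. Model steps were tested on simulated data, in which the changed genes had more UMIs on average than CISH or SOCS3. Fits without the count filter were not simulated. Plots used matplotlib.

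Named genes were the 8 members, the 3 genes most like each called member (mean CPM of at least 10), and, from the lists, the largest and smallest fold changes. Other genes named from the lists were chosen after their values were seen. The members and lists were chosen with earlier results of these data known. T cell markers were not analysed here. A few genes that meet this rule are not reported here. Pairs of libraries of 1 line and time point differed by 1.07 to 3.98 in chi-square per degree of freedom, and none was counted as a duplicate. Total counts set the precision, and genes with few UMIs carry a large counting error.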

Additional observations from a re-analysis of the deposited data

Results flagged for a closer look

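SOCS1 differed between genotypes in a way that changed with time (interaction adjusted p = 5.60e-04 in edgeR), with log2 fold changes of 0.03, 0.78, and 0.33 at 2, 4, and 8 h. CISH differed among the mutant lines in edgeR (joint test adjusted p = 0.00982), from 1.98 in D419G to 0.84 in N421K. DESeq2 and limma-voom did not call this, and neither did edgeR without replicate 1 or without replicate 3.

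Of 40 groups of 9 libraries with any UMI of a member, 6 held a library far from the others by Dixon's ratio. For continuous values chance gives about 1 in 20, a rate that does not apply to groups mostly at 0 UMIs, where a single UMI can give the highest ratio. In SOCS5, the D419N library of replicate 3 at 8 h had 17.3 CPM, beside 4.32 CPM in the next highest STAT6MUT library. It rests on 3 UMIs in the shallowest library, of 161518 UMIs. The others were values of 1 or 2 UMIs in groups mostly at 0. They were 0.568 CPM of SOCS2 in STAT6WT replicate 5 at 4 h, 1.62 CPM of SOCS3 in STAT6WT replicate 7 at 2 h, and 1.18 CPM of SOCS3 in D419G replicate 1 at 8 h. For SOCS6, they were 1.47 CPM in STAT6WT replicate 4 at 2 h and 2.75 CPM in STAT6WT replicate 2 at 8 h.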

How the results depend on the processing

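Of 1119 alternative values, 1060 were kept, that is, with the same direction and side of the threshold, or for a count of members within 1.5 times the reported count. Of these, 7 counts differed by 1 member. Each CISH fold change kept its sign in every alternative run, and so did each SOCS1 fold change except at 2 h. A filter on a mean count of at least 10 removed CISH, which left 1 member called across time points, in D419G, in N421K, and in STAT6WT from 2 h to 4 h, and 0 in D419N, in the joint test, and in STAT6MUT from 2 h to 4 h. At 4 h, 2 members were called (1 in the fit reported) with DESeq2, without a count filter, in 1 model of all 54 libraries, and with the replicate block, since these kept CISH in the test. D419G had 1 member called without the shallow libraries, and D419N 2 without a count filter. The joint test called 0 with DESeq2 and limma-voom, the interaction 2 with limma-voom, and STAT6WT from 2 h to 4 h had 1 when only both conditions were fitted. The cause was not tested for the changes of tool. Exact tests of lines that passed after adjustment numbered 5 of 21 and fell to 0 when all 64 were adjusted together, a choice added after seeing the data.

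Replicates were left out by number in all lines and time points, or as 1 library in fits of a single time point. This gave 0 to 1 members called at 8 h and in the joint test. It gave 1 to 2 in D419G, 1 to 3 in N421K, and 2 to 3 in STAT6WT from 2 h to 4 h. The SOCS1 fold change at 2 h ranged from -0.0070 to 0.094 on the log2 scale, that of SOCS4 at 8 h from -0.056 to 0.18, and that of SOCS4 in D419N from -0.055 to 0.057. SOCS4 at 8 h was -0.18 without N421K, and SOCS4 in D419N was 0.037 in limma-voom and 0.0043 without the shallow libraries. These reversals are of values not called.

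The main fits did not pair samples by replicate number. Deviations of STAT6MUT and STAT6WT libraries of the same number and time correlated at -0.52 to 0.41 (median -0.02), with 7 of 27 pairs over 0.1. For libraries of the same line and number at different times, the range was -0.28 to 0.61 (median -0.02), with 17 of 54 pairs over 0.1. Whether these libraries share a culture was not tested. With the replicate block, D419G had 1 member called (SOCS1 lost, 0.32, adjusted p = 0.138 in edgeR), SOCS1 at 2 h was -0.030, SOCS4 at 8 h was -0.028, and CISH across time points was 1.78 (adjusted p = 3.60e-05). CISH at 4 h without the count filter was 4.31 with the block (adjusted p = 1.93e-05), beside 2.97. Numbers 4 to 9 occur only in STAT6WT, so the block compares the genotypes within numbers 1 to 3. In these, STAT6WT held 0, 1, and 0 CISH UMIs at 4 h. The low UMI counts of CISH limit its 4 h and 8 h values, and levels of SOCS2, SOCS3, and SOCS6 are set by single molecules.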
